A study of Drosophila melanogaster with 31 samples.

Results

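Cyclins and the genes that switch the cell cycle between its phases were followed in sorted cells of Drosophila embryos. The set was chosen by gene name, though with earlier results of these data known: CycE, CycA, CycB, CycB3, CycD, stg, dap and fzr, 8 genes in all. Of these, 5 were each named alone by 1 probe set of the array (CycE, CycD, CycB, CycB3 and fzr), among 11982 genes named alone by a probe set. The other 3 genes, CycA, stg and dap, were named by no probe set in the table used and are not analysed here. A further probe set named fzr together with BaraC and was kept apart.

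The cells were sorted by GFP that an upstream enhancer of atonal (ato) drives, whose main, though not only, sites of activity are chordotonal (stretch receptor) precursors and the cells they give rise to, with eye precursors of the larva among the other sites. The mutant arrays came from embryos of genotype atoGFP.7;ato(mutant);w118, aged 5.75 to 6.75 h after egg laying (t1). The wild-type (WT) arrays came from atoGFP.7;w118 embryos aged 5.75 to 6.75 h (t1), 6.75 to 7.75 h (t2) and 7.75 to 8.75 h (t3). GFP+ and GFP- cells were collected from each, giving 31 arrays in 8 groups of 4, with 3 arrays for WT GFP- cells at t3. All groups carry the same GFP reporter from 1 transgenic line, and the ato allele of the mutant is a presumed null. In the mutant, GFP therefore marks cells in which the ato enhancer is active, which are described as staying largely ectodermal. Each array measured RNA from a pool of cells, so more cells expressing a gene and more RNA per cell cannot be told apart.

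Cyclins are the regulatory subunits of the cyclin-dependent kinases. CycD, with Cdk4, promotes growth and progress through G1, and CycE, with Cdk2, drives entry into S phase. CycB and CycB3 act with Cdk1 in mitosis, and the anaphase-promoting complex marks them for destruction. The protein encoded by fzr, the fly homologue of Cdh1, activates that complex late in mitosis and in G1, and so keeps mitotic cyclins low in cells that leave the cycle or enter endocycles. In the fly embryo most epidermal cells stop in G1 after their last division and shut off CycE, while neural precursors continue to divide.

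The level of ato separated the sorted classes in every group. It averaged 11.54 in GFP+ cells and 7.32 in GFP- cells of mutants on the log2 scale. In wild type it averaged 12.31 and 8.68 at t1, 12.49 and 8.69 at t2, and 8.10 and 6.41 at t3, with GFP+ cells first in each pair. All 7 sensory precursor markers were higher in GFP+ cells at each WT time, with medians of 3.47, 3.03 and 1.41 on the log2 scale from t1 to t3, and 6 of 7 in the mutant, with a median of 0.91. Mesoderm markers were lower in GFP+ cells, 3 of 4 at t1, all 4 at t2 and 3 of 4 at t3. The contrast between the sorted classes was smaller at t3: for 5 of 7 sensory precursor markers the GFP+ over GFP- difference was lower at t3 than at t2, and for 3 of 4 mesoderm and 4 of 7 haemocyte markers, which are depleted, it was higher. These comparisons used limma with a mean for each group over all 31 arrays. A gene passed at a difference of at least 1.5-fold with a Benjamini-Hochberg adjusted p of at most 0.01 over 18769 probe sets, and all adjusted p values are from that fit. Array weights at t3 were low for GFP+ replicates 3 and 4 (0.418 and 0.432) and GFP- replicate 3 (0.460).

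CycE was the only member that passed between GFP+ and GFP- cells of wild type under the limits of 1.5-fold and adjusted p, and it did so at t2. Its log2 level on the GFP+ arrays at t2 was 11.38, 11.38, 11.46 and 11.28, against 10.47, 10.52, 10.31 and 10.49 on the GFP- arrays. The 2 classes lay far apart and the GFP+ arrays differed among themselves by less than 0.2. At t1 the GFP+ arrays read 10.81, 11.16, 10.86 and 10.97 and the GFP- arrays 10.76, 10.57, 10.72 and 10.53, close but not overlapping. At t3 the GFP+ arrays spread widely, at 9.91, 10.07, 10.47 and 10.92, around GFP- arrays at 10.51, 10.56 and 10.47. In the mutant at t1 the GFP+ arrays read 11.10, 10.92, 10.94 and 11.01 and the GFP- arrays 10.88, 10.78, 10.68 and 10.58, again without overlap. Arrays of the sorted classes did not overlap for 19.7% of all probe sets at WT t1, 22.9% at t2 and 29.4% in the mutant.

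**Figure D1:**
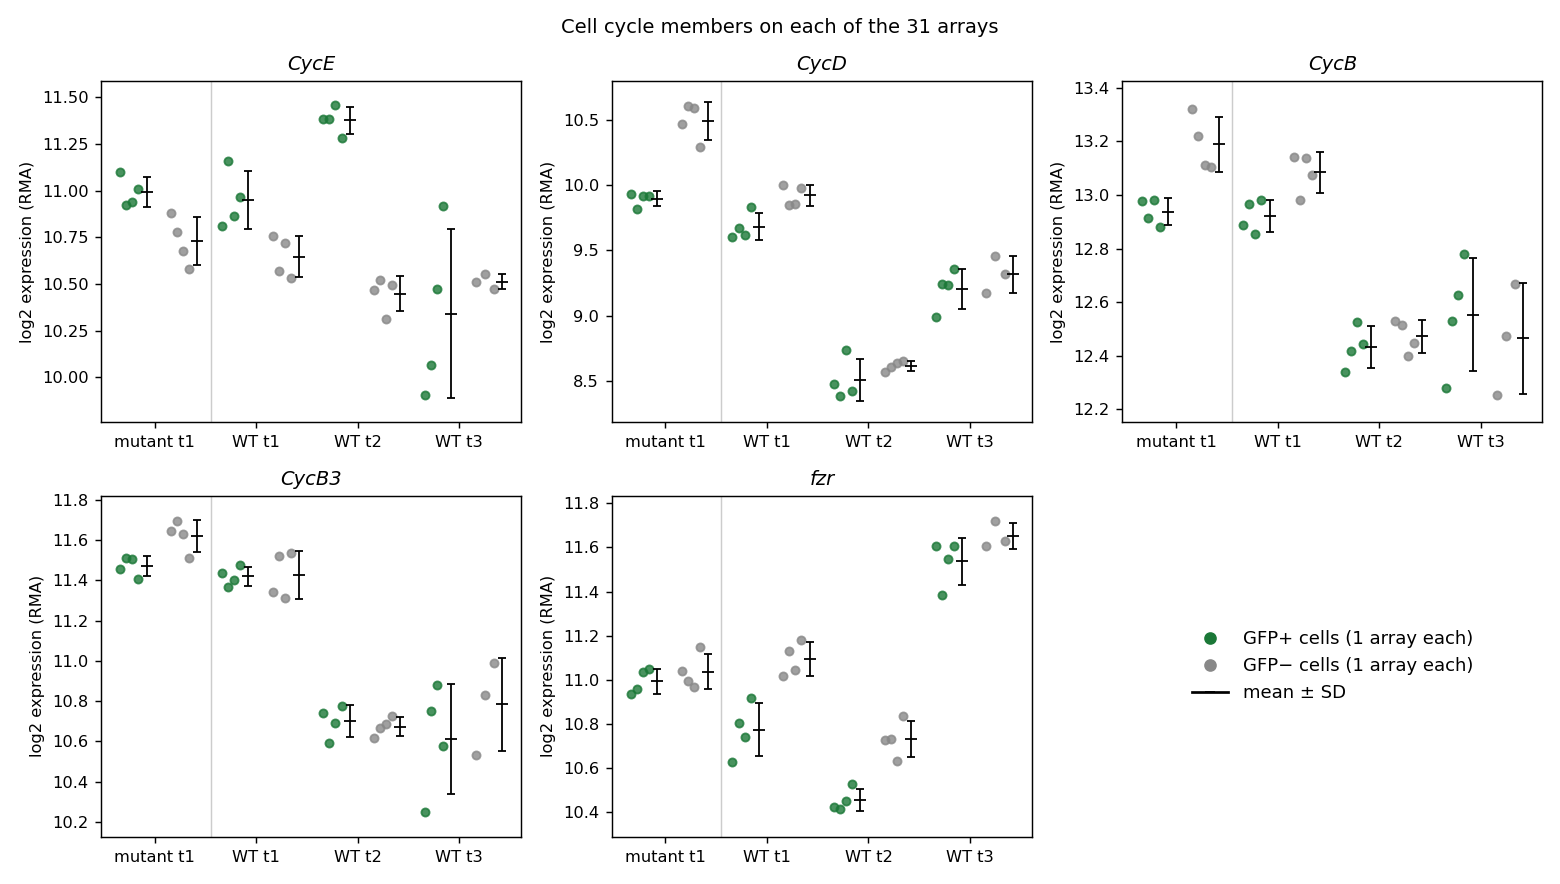
Log2 expression (RMA) of CycE, CycD, CycB, CycB3 and fzr on each of the 31 arrays, with GFP+ cells (green) left of GFP- cells (grey) in mutants at t1 and in wild type (WT) at t1, t2 and t3; black marks give mean ± SD. CycE in GFP+ cells at t2, at 11.28 to 11.46, stands above every other array, while CycD is lowest at t2 and fzr highest at t3 in both cell classes.

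At t2, CycE was 1.90-fold higher in GFP+ cells, a log2 difference of 0.93 (SE 0.13, adjusted p = 1.01e-06). It was the single member of 5 that passed at t2, where 6.75% of all probe sets passed and 2.54% were higher. The difference at t1 was 0.30 (95% interval 0.05 to 0.56, adjusted p = 0.114) and at t3 it was -0.17 (interval -0.45 to 0.11, adjusted p = 0.507). No member passed at t1, where 5.61% of probe sets passed, or at t3, where 5.47% did.

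The GFP+ over GFP- difference of CycE was itself lower at t3 than at t2, by 1.10 on the log2 scale (value -1.10, SE 0.19, adjusted p = 0.000108). CycE was the single member that passed this comparison, which was chosen with the values already known and in which 4.10% of probe sets passed and 1.74% were lower. Leaving out each of the 15 arrays in turn gave -1.29 to -0.96, past the threshold each time. Between t2 and t1 the differences differed by 0.62 (interval 0.26 to 0.99, adjusted p = 0.121), in a comparison chosen in the same way, where 0.378% of probe sets passed. Between t3 and t1 they differed by -0.48 (interval -0.86 to -0.10, adjusted p = 0.142, 3.56% of probe sets passing). Of the WT GFP+ arrays at t3, replicate 4 had the highest CycE level and also the highest mean level of sensory precursor markers. Without this array the t3 minus t1 value was -0.67 with an adjusted p of 0.00218, past the threshold.

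Followed over time within each class, CycE in GFP+ cells was 0.43 higher at t2 than at t1 on the log2 scale (adjusted p = 0.00871, 1.34-fold and so short of 1.5-fold). It then fell 2.05-fold at t3 relative to t2 (log2 difference -1.04, SE 0.13, adjusted p = 2.81e-08). In GFP- cells CycE differed by -0.20 (interval -0.45 to 0.06) between t2 and t1 and by 0.06 (interval -0.21 to 0.34) between t3 and t2. From high to low, the 8 group means were those of GFP+ at t2, mutant GFP+ at t1, WT GFP+ at t1, mutant GFP- at t1, WT GFP- at t1, GFP- at t3, GFP- at t2 and GFP+ at t3. Only the first group was clear of its neighbour in this order, and every later pair of neighbours overlapped in its array values.

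Genes of DNA replication were also higher in GFP+ cells at t2. Of 8 measured genes of the S phase list, 5 were higher in GFP+ cells at t2 and none was lower, with a median of 0.80 against 0.02 over all probe sets. DNApol-alpha73, a subunit of DNA polymerase alpha, was higher by 1.34 (SE 0.12, adjusted p = 1.87e-10) and CDC45L, a component of the replicative helicase, by 0.86 (adjusted p = 1.99e-06). The other 3, named here after their values had been seen, were RnrL (0.85), the large subunit of ribonucleotide reductase, Cdc6 (0.84), which licenses origins, and DNApol-alpha180 (0.76), the catalytic polymerase subunit. PCNA (0.57, the sliding clamp) and dup (0.55, the fly Cdt1) had adjusted p values of 4.95e-05 and 0.000143 but were short of 1.5-fold, and Slbp (0.17), which binds histone mRNA, had an adjusted p of 0.40.

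With limma's treat, which tests against the 1.5-fold limit itself, or with a 2-fold limit, 1 of the 8 passed at t2, and after centring on ribosomal protein genes 7 did. Within each class the list did not follow CycE from t1 to t2. At t2 over t1 1 gene was higher and 5 were lower in GFP+ cells (median -0.70), and none was higher and 6 were lower in GFP- cells (median -1.09). At t3 over t2, 5 were lower in GFP+ cells (median -0.74), and 2 were higher and 2 lower in GFP- cells (median 0.32). Of all probe sets, 10.7% passed at t2 over t1 in GFP+ cells and 13.2% in GFP- cells, with medians of 0.04 and 0.05. At t3 over t2 the shares were 22.4% and 20.7%, with a median of -0.11 in each class.

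At t1 only DNApol-alpha73 of this list passed (0.63), with a median of 0.35 over the 8 genes, and at t3 none passed, with a median of -0.30. Between t3 and t2, in the comparison chosen with the values already known, the GFP+ over GFP- difference was lower for 7 of the 8. The median was -1.06, and DNApol-alpha73 (-1.63) and CDC45L (-1.44) led. Leaving out single arrays gave 6 to 8 of the 8. The mean level of the list at t3 was 9.11, 9.47, 9.77 and 9.61 on the GFP+ arrays and 9.77, 9.88 and 9.80 on the GFP- arrays. The lowest of these GFP+ arrays, replicate 1, was also the lowest for CycE, but the highest for CycE, replicate 4, was not the highest for the list. On these GFP+ arrays, in the same order, sensory precursor markers averaged 9.58, 9.81, 9.12 and 10.23 and mesoderm markers 7.12, 7.38, 8.03 and 7.40. Replicate 3, the highest for the list, thus had the lowest sensory precursor and highest mesoderm level. The part of cell composition in this spread was not tested.

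**Figure D2:**
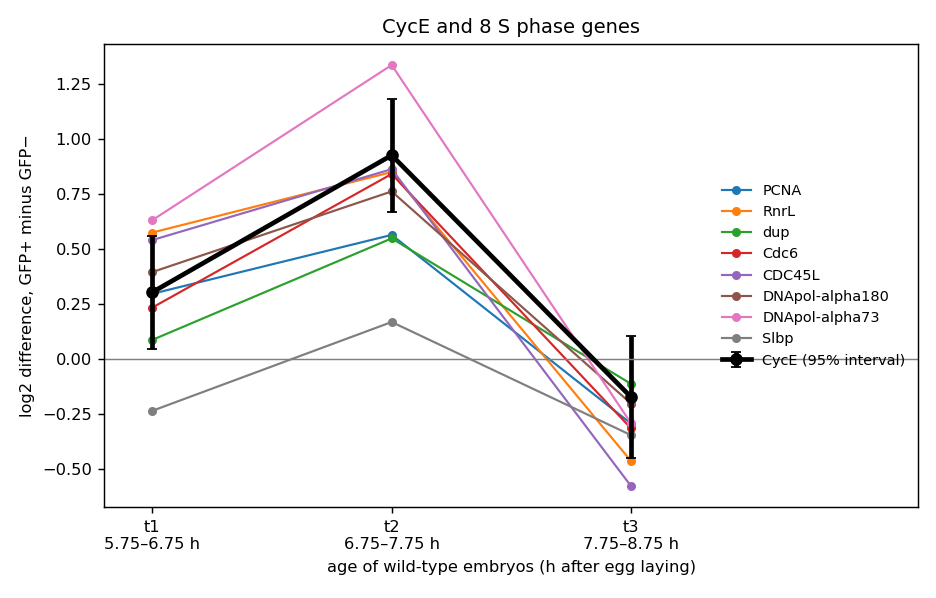
Log2 difference between GFP+ and GFP- cells (vertical axis) at t1, t2 and t3 of wild-type embryos (horizontal axis, age in h after egg laying) for CycE (black, with 95% interval) and the 8 measured genes of the S phase list (1 colour each). All 9 genes are highest at t2, where CycE stands at 0.93 and DNApol-alpha73 at 1.34, and all 9 are below 0 at t3.

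Among G1/S regulators, 1 of 7 measured genes was higher in GFP+ cells at t2 (Rbf2, a retinoblastoma family member, 0.64), and none passed at t1 or t3. Cdk2, the partner of CycE, differed by 0.38 at t2 without passing. Among neuroblast markers, 1 of 7 was higher in GFP+ cells at t2 (dpn, 1.06) and none lower, and between t3 and t2 the difference was lower for 2 of 7 (dpn, -0.95, and nab, -1.01). Their mean level on the arrays was 9.32 to 9.56 in GFP+ cells and 9.02 to 9.29 in GFP- cells at t2, and 9.42 to 9.87 in GFP+ cells and 9.73 to 9.91 in GFP- cells at t3. The part of cell composition in the CycE and S phase differences was not tested.

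CycD changed mainly with age, in both cell classes alike. Its log2 level on the GFP+ arrays was 9.60, 9.67, 9.61 and 9.83 at t1, 8.48, 8.38, 8.74 and 8.42 at t2, and 8.99, 9.24, 9.23 and 9.36 at t3. On the GFP- arrays it was 10.00, 9.85, 9.86 and 9.98 at t1, 8.57, 8.61, 8.63 and 8.65 at t2, and 9.18, 9.46 and 9.32 at t3. The 3 ages did not overlap in either class. Single pairs of ages did not overlap for 32.1% to 44.7% of all probe sets in GFP+ cells and 36% to 50.2% in GFP- cells. At t2 over t1 CycD fell 2.26-fold in GFP+ cells (log2 difference -1.18, SE 0.08, adjusted p = 2.05e-12) and 2.47-fold in GFP- cells (-1.30, adjusted p = 1.42e-13). At t3 over t2 it rose 1.62-fold in GFP+ cells (0.70, adjusted p = 2.29e-08) and 1.63-fold in GFP- cells (0.70, adjusted p = 1.12e-07), which left it below its t1 level. Over all 8 groups CycD was highest in mutant GFP- cells and lowest in the 2 groups of t2, which overlapped each other but no other group.

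In the mutant, CycD was the only member that passed between the sorted classes. Its level was 9.94, 9.82, 9.92 and 9.92 in GFP+ cells, against 10.47, 10.61, 10.59 and 10.29 in GFP- cells. The arrays did not overlap, as was also so for CycE, CycB and CycB3 and for 29.4% of all probe sets. The difference of -0.59 (SE 0.08, adjusted p = 1.18e-06) is 1.51-fold, only just past the fold limit. Leaving out mutant GFP+ replicate 2, GFP- replicate 2 or GFP- replicate 3 gave -0.57, -0.55 and -0.56, each short of 1.5-fold. CycD was the single member of 5 that passed in the mutant, where 10.8% of probe sets did. In wild type at t1 its difference was -0.24 (interval -0.41 to -0.07, adjusted p = 0.0515), and the mutant minus WT difference of these was -0.35 (interval -0.59 to -0.11, adjusted p = 0.0511). CycD was also higher in mutant GFP- cells than in WT GFP- cells by 0.57 (adjusted p = 3.25e-06, 1.48-fold and so short of 1.5-fold). In GFP+ cells the mutant exceeded wild type by 0.22 (interval 0.04 to 0.39, adjusted p = 0.0857).

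CycB and CycB3, the mitotic cyclins, were lower after t1 in both cell classes, and neither passed between GFP+ and GFP- cells at any age or in the mutant. For both, every t1 array, mutant arrays included, lay above every t2 and t3 array. No share of all probe sets was computed for that joint separation. For t1 and t3 alone the WT arrays did not overlap for 40.6% of all probe sets in GFP+ cells and 44.9% in GFP- cells. CycB read 12.89, 12.97, 12.86 and 12.98 in GFP+ cells and 13.14, 12.98, 13.14 and 13.07 in GFP- cells at t1. At t2 it read 12.34, 12.42, 12.53 and 12.45 in GFP+ cells and 12.53, 12.52, 12.40 and 12.45 in GFP- cells. Between these ages the arrays did not overlap in either class, as for 32.1% of all probe sets in GFP+ cells and 36% in GFP- cells. At t3 the arrays spread more, at 12.28, 12.53, 12.63 and 12.78 in GFP+ cells and 12.26, 12.47 and 12.67 in GFP- cells. CycB fell 1.53-fold at t2 over t1 in GFP- cells (-0.61, SE 0.08, adjusted p = 5.13e-07) and differed by -0.49 in GFP+ cells (adjusted p = 2.14e-05, 1.40-fold, short of the limit).

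CycB3 read 11.44, 11.37, 11.40 and 11.48 in GFP+ cells and 11.34, 11.52, 11.31 and 11.54 in GFP- cells at t1. At t2 it read 10.74, 10.59, 10.69 and 10.78 in GFP+ cells and 10.62, 10.67, 10.68 and 10.73 in GFP- cells, well below every t1 array. It fell 1.65-fold in GFP+ cells (-0.72, SE 0.10, adjusted p = 3.13e-07) and 1.69-fold in GFP- cells (-0.75, adjusted p = 1.09e-07). At t3 over t2 neither mitotic cyclin passed in either class, with CycB at 0.12 (interval -0.05 to 0.29) and -0.01 (interval -0.19 to 0.18) in GFP+ and GFP- cells and CycB3 at -0.09 (interval -0.28 to 0.11) and 0.11 (interval -0.10 to 0.32). Between the sorted classes of wild type, CycB differed by -0.16, -0.04 and 0.09 at t1, t2 and t3, and CycB3 by -0.01, 0.03 and -0.17. The 95% intervals of these 6 differences all lay within 0.38 of 0, inside the 1.5-fold limit. In mutant GFP+ cells CycB read 12.98, 12.91, 12.98 and 12.88, against 13.32, 13.22, 13.11 and 13.10 in mutant GFP- cells. CycB3 read 11.46, 11.51, 11.51 and 11.41 in mutant GFP+ cells, against 11.65, 11.69, 11.63 and 11.51 in mutant GFP- cells. CycB thus differed by -0.25 (adjusted p = 0.0228) and CycB3 by -0.15 (adjusted p = 0.291), with no overlap of the arrays for either, as for 29.4% of all probe sets in that comparison.

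**Figure D3:**
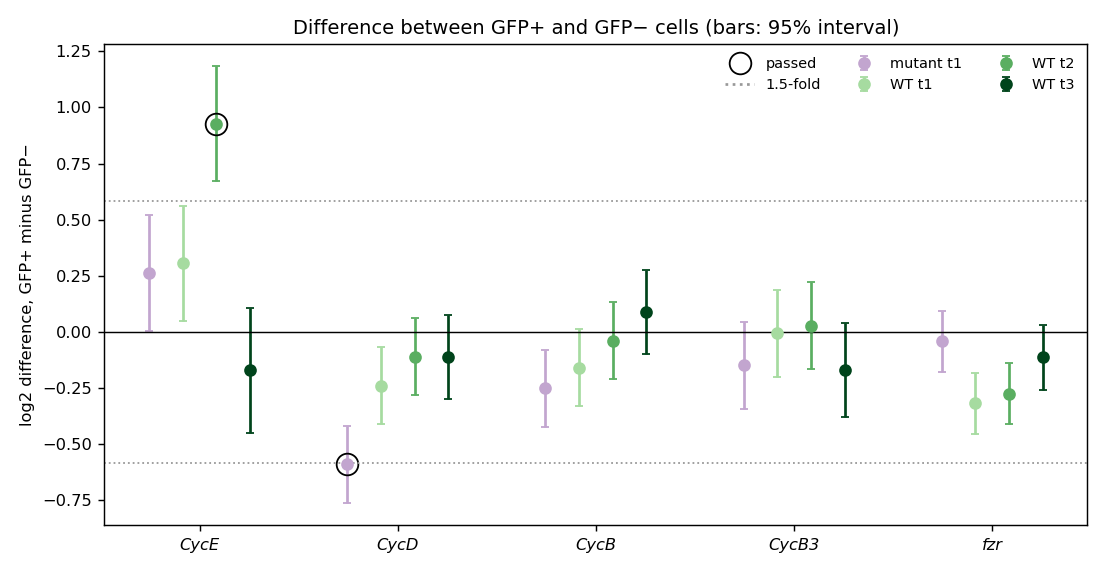
Log2 difference between GFP+ and GFP- cells for each member (vertical axis) in mutants at t1 and in wild type (WT) at t1, t2 and t3; bars are 95% intervals, dotted lines mark 1.5-fold and circles mark differences that passed. Only CycE in wild type at t2 (0.93) and CycD in the mutant (-0.59) are circled.

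The APC activator fzr rose at t3 over t2 in both classes, the step at which neither mitotic cyclin passed. Its level in GFP+ cells was 10.63, 10.81, 10.74 and 10.92 at t1, 10.43, 10.42, 10.45 and 10.53 at t2, and 11.61, 11.38, 11.55 and 11.61 at t3. In GFP- cells it was 11.02, 11.13, 11.04 and 11.18 at t1, 10.73, 10.73, 10.63 and 10.84 at t2, and 11.61, 11.72 and 11.63 at t3. In both classes t2 was lowest and t3 highest, with no overlap between ages, and the t3 arrays stood above all others, mutant arrays included. Arrays of t2 and t3 did not overlap for 44.7% of all probe sets in GFP+ cells and 50.2% in GFP- cells. These shares were 32.1% and 36% for t1 and t2, and 40.6% and 44.9% for t1 and t3. No share was computed for t3 against all other groups together. At t3 over t2 fzr rose 2.12-fold in GFP+ cells (1.08, SE 0.07, adjusted p = 1.24e-14) and 1.89-fold in GFP- cells (0.92, adjusted p = 4.13e-12). The earlier decline of t2 over t1 was -0.32 in GFP+ cells (adjusted p = 0.000277) and -0.36 in GFP- cells (adjusted p = 4.6e-05), both short of 1.5-fold.

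In GFP+ cells fzr was lower than in GFP- cells by 0.32 at t1 (value -0.32, SE 0.07, adjusted p = 0.000593) and at t2 by 0.28 (value -0.28, adjusted p = 0.00227), but below 1.5-fold. The arrays did not overlap at either age, as for 19.7% of all probe sets at t1 and 22.9% at t2. At t3 the difference was -0.11 (interval -0.26 to 0.03). In the mutant fzr read 10.94, 10.96, 11.04 and 11.05 in GFP+ cells and 11.04, 11.00, 10.97 and 11.15 in GFP- cells, which overlap, with a difference of -0.04 (interval -0.18 to 0.09). The mutant minus WT difference was 0.28 (interval 0.09 to 0.47, adjusted p = 0.0515). The mutant GFP+ arrays lay above all WT GFP+ arrays at t1, by 0.22 on average (adjusted p = 0.0191, 1.17-fold). Arrays of these groups did not overlap for 19% of all probe sets. The probe set that names BaraC and fzr together gave another course. It averaged 7.90, 7.04 and 7.15 in GFP+ cells and 7.91, 7.08 and 6.97 in GFP- cells, for t1, t2 and t3 in turn. It did not share the t3 rise, with a t3 over t2 difference of 0.11 in GFP+ cells and -0.10 in GFP- cells. At t2 over t1 it was lower in GFP+ cells (-0.86, adjusted p = 9.31e-06) and GFP- cells (-0.83, adjusted p = 1.27e-05). At t3 over t1 it was lower too, at -0.75 (adjusted p = 3.74e-05) and -0.94 (adjusted p = 4.53e-06), and all these differences passed.

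No member passed between mutant and wild type. This holds for GFP+ cells, where 5.26% of probe sets passed, for GFP- cells, where 8.15% did, and for the difference of the sorted classes, where 5.42% did. CycE was almost the same in the 2 genotypes, at 0.04 (interval -0.22 to 0.30) in GFP+ cells and 0.08 (interval -0.17 to 0.34) in GFP- cells. Its GFP+ over GFP- difference was 0.26 in the mutant (interval 0.01 to 0.52, adjusted p = 0.137) and 0.30 in wild type at t1, with a difference between the genotypes of -0.04 (interval -0.41 to 0.32). No mutant arrays of t2, the age at which CycE passed in wild type, were analysed here. In the S phase list 2 of 8 genes were higher in mutant GFP+ cells than in mutant GFP- cells, DNApol-alpha73 (0.89) and DNApol-alpha180 (0.85), with a median of 0.42 over the list against 0.04 over all probe sets.

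Between mutant and WT cells, 5.26% of all probe sets passed in GFP+ and 8.15% in GFP- cells, and some genes of the lists did. In GFP+ cells these were 1 lower of 14 G2/M genes (Cks85A, -0.65), 1 higher of 16 APC genes and 1 higher of 6 further cyclins. In GFP- cells they were 1 higher and 1 lower G2/M gene (cid, the centromeric histone, -0.82), 1 lower of 8 S phase genes (DNApol-alpha73, -0.64), 2 higher APC genes and 1 higher cyclin, and no G1/S regulator passed in either class. The higher G2/M gene, twe, a Cdc25 phosphatase known for its role in meiosis, averaged 5.32 in mutant GFP+ cells and 8.26 in mutant GFP- cells, against 5.45 and 5.57 in the same classes of wild type at t1. It was thus 2.69 higher on the log2 scale in mutant GFP- cells than in WT GFP- cells. Cdc27, an APC subunit, was higher in the mutant in both classes (0.98 in GFP+ and 1.03 in GFP- cells), as was CycT, a partner of Cdk9 in transcription elongation (1.33 and 1.13). pim, the fly securin, was higher in mutant GFP- cells (0.94) and differed by 0.24 in GFP+ cells without passing, and the difference between the classes itself passed (-0.70). The mutant and WT embryos are separate stocks, although the study backcrossed the mutant line repeatedly to the reporter stock to limit background differences. The part of strain background in the differences between mutant and WT cells was not tested.

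Counted over the members, 2 of 5 passed at t2 over t1 in GFP+ cells and 3 of 5 in GFP- cells, where 10.7% and 13.2% of probe sets passed. At t3 over t2 the counts were 3 of 5 and 2 of 5, with 22.4% and 20.7% of probe sets passing. At t3 over t1 they were 3 of 5 in each class, with 22.2% and 21.8% of probe sets passing, of which 11.1% and 10.9% were lower. In GFP+ cells CycE (-0.61, SE 0.13, adjusted p = 0.000147) and CycB3 (-0.81, SE 0.10, adjusted p = 1.46e-08) were lower and fzr (0.76, SE 0.07, adjusted p = 2.5e-11) higher at t3 than at t1. In GFP- cells CycD (-0.60), CycB (-0.62) and CycB3 (-0.64) were lower, and fzr differed by 0.56 (adjusted p = 9.12e-08, 1.47-fold, short of the limit). The probe set naming BaraC and fzr together, not counted here, went the other way and passed, at -0.75 in GFP+ and -0.94 in GFP- cells. CycE at t3 over t1 lost its call without GFP+ replicate 2 of t1 (-0.54), or replicate 1 (-0.46) or 2 (-0.52) of t3, and after cyclic loess between arrays (-0.41). Without GFP- replicate 1 of t3 none of the 3 cyclins passed in GFP- cells, nor did they after cyclic loess.

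In 4 of the lists, genes that passed between t3 and t1 were all lower at t3, in both classes, while other genes of 3 of these lists did not pass in either class. All 8 S phase genes were lower in GFP+ cells and 7 of 8 in GFP- cells, with medians of -1.30 and -0.84 against -0.08 and -0.07 over all probe sets. DNApol-alpha73 was lower by 2.15 in GFP+ cells (value -2.15) and by 1.22 in GFP- cells (value -1.22). Among 14 measured genes of G2/M and mitosis, 9 were lower in GFP+ and 10 in GFP- cells, none higher, with medians of -1.06 and -0.98. Cks30A, a subunit of Cdk1 complexes, stood at -1.98 and -2.10, and trbl, a pseudokinase that promotes Cdc25 degradation, at -1.80 and -2.05. Of 16 genes of the APC and its substrates, 10 and 12 were lower, with medians of -0.97 and -0.74, led in both classes by Sse, the fly separase, at -1.67 and -1.78. Among G1/S regulators 4 and 3 of 7 were lower, with Rbf2 at -1.22 and -1.16, and after centring on ribosomal protein genes 7 and 6 were. In GFP- cells the counts depended most on the setting, with 2 of 8 S phase and 6 of 16 APC genes lower under treat or a 2-fold limit.

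The cyclins that act in transcription did not move as 1 group. CycC, of the Mediator kinase module, fell at t3 over t1, with differences of -1.50 in GFP+ and -1.45 in GFP- cells. CycH, of the Cdk-activating kinase, fell by 1.02 in GFP+ cells and by 1.00 in GFP- cells. CycT rose by 1.06 and 0.92. Of the 6 further cyclins measured, none passed between GFP+ and GFP- cells at any age or in the mutant. Within G2/M and APC genes, trbl alone was higher in GFP+ cells in wild type, at t3 (0.66). In the mutant, trbl was higher (0.72), and twe (-2.94), Cks85A (-0.91) and pim (-0.60) were lower in GFP+ than in GFP- cells. At t3 over t1 in GFP+ cells, where fzr rose, no gene of the APC list was higher, with Cdc27 the highest at 0.47 and short of the limit.

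**Figure D4:**
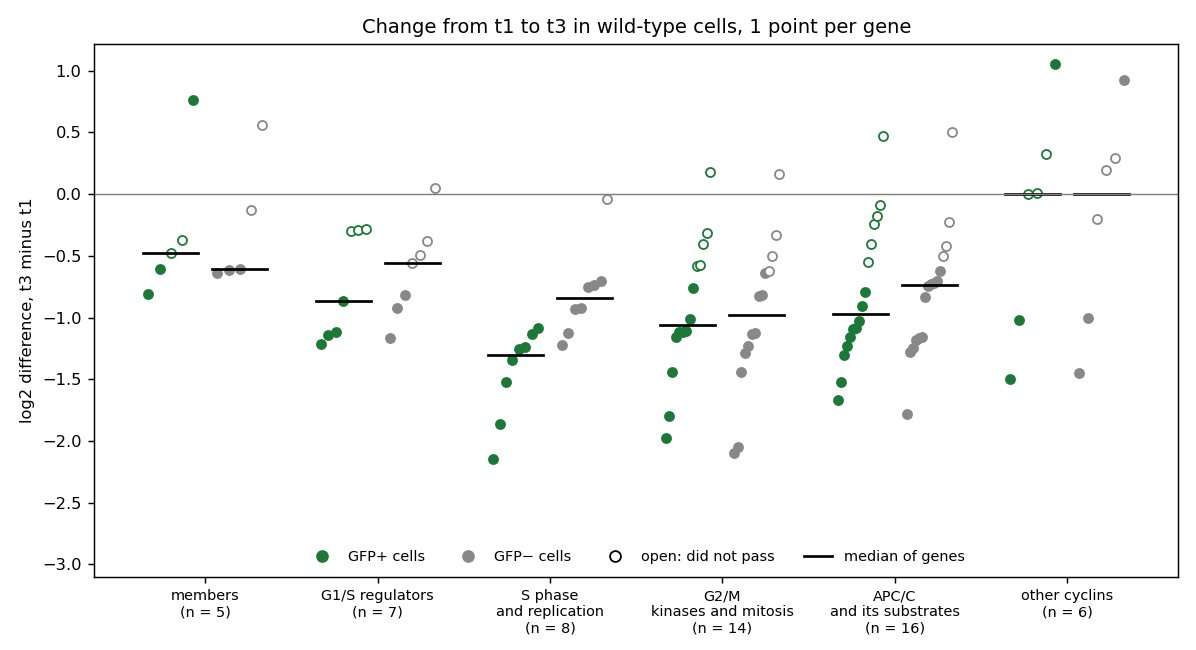
Log2 difference between t3 and t1 (vertical axis) in wild-type GFP+ cells (green, left) and GFP- cells (grey, right), 1 point per gene, for the 5 members and 5 lists of cell cycle genes; filled points passed, open points did not, and black bars are medians. The highest member in each class is fzr (0.76 and 0.56), and every S phase gene is below 0.

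Across the 31 arrays, levels of CycB and CycB3 ran together (Pearson r = 0.92), as did those of CycB and CycD (0.90) and of CycD and CycB3 (0.87), while CycE and fzr ran in opposite directions (-0.61). These are descriptions over arrays that share age and sort, and carry no test. Among 6097 genes with a mean log2 level of at least 6, the genes most like CycE were CG10336 (0.86), insv (0.81) and Naa40 (0.81), a looser likeness than any other member had. CycD was most like nes (0.98), CG12567 (0.97) and CG12547 (0.97). CycB was most like dgt6 (0.96), a subunit of the augmin complex of the spindle, TAF1B (0.95) and PIG-T (0.95), and CycB3 was most like CG8679 (0.97), TAF1B (0.97) and Uba2 (0.96). For fzr they were CG1703 (0.96), Cat (0.96), the catalase gene, and CG9426 (0.95).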

How the data were processed

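RNA of FACS-sorted GFP+ and GFP- embryo cells was hybridised to Affymetrix Drosophila genome arrays (18952 probe sets) from independent samples. The authors summarised the arrays by RMA with quantile normalisation and deposited log2 values, which were used as deposited. No raw intensities were used. The 18769 probe sets other than 183 controls were fitted with limma 3.58.1 (R 4.3.3), with a mean per group. The limits of 1.5-fold and an adjusted p of 0.01 are those of the study's methods. Quantile normalisation equalises the arrays, so a shift shared by most genes would not be seen. Probe sets were named from the platform table, with older symbols updated through RefSeq. Named genes are all members, the 3 genes most correlated with each, and up to 4 called genes per list and comparison (the 2 largest each way). The members and lists were chosen with earlier results of these data known. For WT GFP- replicate 4 at t2 the title was followed, since its source label names the opposite class. The limma step was first tested on simulated data. The number of arrays limits the precision.

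Replicate numbers are shared by GFP+ and GFP- arrays. In the mutant all 4 correlations of same-numbered deviations were above 0.1 (0.213 to 0.299), so the numbers pair the samples there. In wild type at least 1 correlation at each age was below that. Same-numbered arrays were still the closest match throughout WT t1 and mostly at t2 and t3, with correlations up to 0.558. The study collected both cell classes in each sort run. The main fit has no block in either genotype, so its p values do not use this pairing. The fit was repeated with only the compared groups, with a replicate block, after cyclic loess, after centring on 47 ribosomal protein probe sets, without dim probe sets, with a robust intensity trend, with array weights, with limma's treat, with limits of 5% or 2-fold, with the mean of a gene's probe sets, and without each array in turn.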

Additional observations from a re-analysis of the deposited data

Results flagged for a closer look

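CycE differed between time points in its GFP+ over GFP- difference, which was 0.93 at t2 and -0.17 at t3, and the test of the difference between them gave -1.10 (SE 0.19, adjusted p = 0.000108, limma). That comparison was chosen with the values already known, and the t3 minus t1 comparison did not pass (adjusted p = 0.142, limma). All 4 GFP+ arrays lay above all GFP- arrays at t2, where the classes did not overlap for 22.9% of all probe sets. At t3, 3 of 4 GFP+ arrays lay below the GFP- mean. The contrast of the sensory precursor and mesoderm markers was also smaller at t3 than at t2, and its part in this result was not tested.

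CycD in mutant GFP+ cells had 1 array apart from the others: replicate 2 read 9.82, against 9.94, 9.92 and 9.92, a gap of 0.859 of the group's whole range. The range itself was small. Of 35 groups of 4 tested, this was the only one past the limit, and chance puts about 1 in 20 past it.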

How the results depend on the processing

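No called member reversed its direction under any alternative. CycE at t2 passed in 9 of 11 alternatives and with each of 8 arrays left out (0.88 to 0.96), and was lost against the fold limit itself (treat, adjusted p = 0.171) and at 2-fold. With treat, counts of members became 0 for the GFP+ over GFP- difference at t2, 0 in the mutant, 1 for GFP+ and 1 for GFP- cells at t2 over t1, 1 for GFP- cells at t3 over t2, 0 for both classes at t3 over t1, and 0 for the t3 minus t2 difference of the classes. At 2-fold they were 0 at t2, 0 in the mutant, 1 and 1 at t2 over t1, 0 for GFP- cells at t3 over t2, and 0 for both classes at t3 over t1. After cyclic loess CycD, CycB and CycB3 no longer passed in GFP- cells at t3 over t1 and fzr (0.79) newly did, a count of 1, and CycB was lost in GFP- cells at t2 over t1 (-0.53) and CycE in GFP+ cells at t3 over t1 (-0.41). With cyclic loess or array weights 1 member, CycD, passed between mutant and WT GFP- cells. With cyclic loess 1 gene of the APC list was higher at t3 over t1 in each class, 3 S phase genes were higher at t1, and the genes lower in GFP- cells were 4 of 8 in the S phase, 2 of 7 in the G1/S and 7 of 16 in the APC list. S phase genes lower in the t3 minus t2 difference were 4 of 8 with treat or 2-fold, and G1/S genes lower in GFP- cells at t3 over t1 were 2 and 1 of 7. Ribosomal centring gave 0 members in the mutant, and 3 and 7 S phase genes higher at t1 and t2. With it CycB newly passed in GFP+ cells at t2 over t1 (-0.73) and at t3 over t1 (-0.71). CycD newly passed in GFP+ cells at t3 over t1 (-0.82) and fzr in GFP- cells at t2 over t1 (-0.68). This centring thus removed the contrast of the classes in calls of CycB at t2 over t1 and of CycB and CycD at t3 over t1. It moved the median of all probe sets by 0.18 at t2, 0.21 in the mutant, -0.34 in GFP+ and -0.33 in GFP- cells at t3 over t1, and -0.24 and -0.32 at t2 over t1. Its calls at t2 were 891 higher and 512 lower (477 and 789 as deposited), at t3 over t1 1471 and 4509 in GFP+ cells (2089 and 2076) and 1416 and 4305 in GFP- cells (2041 and 2052), and for the t3 minus t2 difference 335 and 476 (443 and 327). fzr at t3 over t1 in GFP+ cells was then 0.42 and did not pass. Fitting only the compared groups gave 1 member, CycE, for the t2 minus t1 difference and lost CycE at t3 over t1 in GFP+ cells (adjusted p = 0.0246). Leaving out single arrays gave 0 to 1 members in the mutant, 0 to 1 between mutant and WT GFP- cells and 0 to 1 for the t3 minus t1 difference. For GFP- cells at t3 over t1 it gave 0 to 4 members. There fzr (0.59) newly passed without GFP- replicate 4 of t1, beside CycD, CycB and CycB3.

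With the replicate block, 1 member, CycE (-0.67, adjusted p = 0.00571), passed for the t3 minus t1 difference, and fzr passed at t3 over t1 in GFP- cells. GFP+ replicate 4 at t3 has no partner and carries no weight in a blocked difference of the classes. Where a call changed, the cause was not tested. The t3 arrays vary most and limit what can be said of that age.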
